A study of Saccharomyces cerevisiae with 12 samples.

Results

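The comparison is between fhf3 and fhf1, mutants of the budding yeast Saccharomyces cerevisiae Y55 that were obtained by UV mutagenesis and are described in the labels as fast fermenters of maltose. It uses 6 of the 12 arrays in the series, 3 of fhf3 and 3 of fhf1, each from a separate culture. The arrays were assigned to groups by their strain labels. The other 6 arrays hold fhf2, a further mutant, and the Y55 wild type, with 3 cultures each, and they enter only the estimate of the spread and, for wild type, some values given for context. All 4 strains share the Y55 background (JT20150, mating type alpha, with the sugar loci MAL1 and SUC1) and were sampled on day 2 of stirred, semi-aerobic fermentations of 200 mL rich medium with 20% maltose at 22 °C. The labels name no mutated gene in fhf3 or fhf1, and they do not say how many isolates stand behind each name. Since all cultures were taken on day 2, a difference between strains and a difference in how far the fermentation had run cannot be told apart.

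Maltose enters yeast cells through a proton-coupled permease and is split inside the cell by maltase into glucose, which a hexokinase or glucokinase phosphorylates for glycolysis. While glucose flux and nutrient signals are high, yeast cells put much of their transcription into ribosomal proteins and the factors that assemble ribosomes, and protein kinase A and glucose repression hold down the genes for stress protection, storage carbohydrates and respiration. As sugar or other nutrients run out, ribosomal genes are switched down and the stress, storage and respiratory genes are switched on. The comparison of fhf3 with fhf1 asks in which of these programmes the mutants themselves differ, with no wild type in the contrast.

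Messenger RNA purified on oligo(dT) was copied to cDNA, labelled with Cy3 and read on 1-colour arrays. Levels below are the log2 signal of a gene in a culture minus the median of that array, so that 0 is the median gene of the culture. A difference is fhf3 minus fhf1 in mean log2 signal, centred on the median of all genes, and a gene is said to have risen or fallen where limma's moderated test gave a Benjamini-Hochberg adjusted p under 0.05 over the 5769 genes tested. All adjusted p-values come from that fit. The standard error of a difference lay between 0.259 and 0.287 for every gene, and the smallest difference called was 0.679 in size, so that a low count of calls does not show that smaller differences are absent. The lowest level on an array was -4.43, -4.51 and -4.76 in the fhf3 cultures and -5.10, -4.57 and -5.14 in the fhf1 cultures, and a gene within 1 log2 unit of it in all 3 cultures of a strain is said to lie near the lowest signals. Where 1 strain lies there, the size of the difference may be only a lower bound. In a culture, fewer cells that express a gene and less RNA per cell cannot be told apart. The median log2 signal of an array was 12.09, 12.13 and 12.45 in the fhf3 cultures and 12.84, 12.15 and 12.85 in the fhf1 cultures, and over all 12 arrays it spanned 0.887. Arrays correlated over all genes at r = 0.983 to 0.987 within fhf3, at 0.964 to 0.982 within fhf1 and at 0.858 to 0.899 between them.

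The mutants differed in a large share of the genome. In fhf3 598 genes rose and 539 fell relative to fhf1, which is 10.4% and 9.34% of the genes tested and 19.7% in all. Of these 1137 genes, 1133 had levels in the fhf3 cultures that did not overlap those in the fhf1 cultures, where over all genes 26.9% were higher and 26.5% lower without overlap. The split into rises and falls depends on centring, because the median gene itself stood at -0.38 in fhf3 minus fhf1. Without centring 267 genes rose (4.63%) and 1700 fell (29.5%), which is 34.1% in all. The size of the count depends on the scaling of the arrays. When each array was first set to a common median, an alternative chosen after seeing the data, the median standard error was 0.133 in place of 0.264 and 1428 genes rose (24.8%) and 1383 fell (24.0%), or 48.7% in all, among them all 1137 with the same direction. The differences themselves are the same numbers in both fits. In limma's moderated test the spread shared by all genes counted as 177.8 degrees of freedom as deposited and 10.25 with scaled arrays. Very small adjusted p-values rest on that shared spread and not on 3 cultures per strain alone. That of HSP12 was 3.3e-41 as deposited and 5.56e-14 with scaled arrays, and that of YER053C-A 1.74e-25 and 1.91e-09. Tested against a 2-fold difference, 17 genes rose (0.295%) and 59 fell (1.02%), and with scaled arrays 57 rose (0.988%) and 99 fell (1.72%), or 2.7% in all. With fhf1 replicate 1 left out, 360 genes rose and 366 fell. Counts of calls in the lists below are to be read beside the shares over all genes. These are 10.4% risen and 9.34% fallen, or 24.8% and 24.0% with scaled arrays. Some genes belong to more than 1 list, such as HSP12, SIP18, CTT1, GPX1 and ALD3. The counts of different lists are therefore not independent. Against the shared wild type, 253 genes rose (4.39%) and 668 fell (11.6%) in fhf3, and 30 rose (0.52%) and 136 fell (2.36%) in fhf1.

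**Figure D1:**
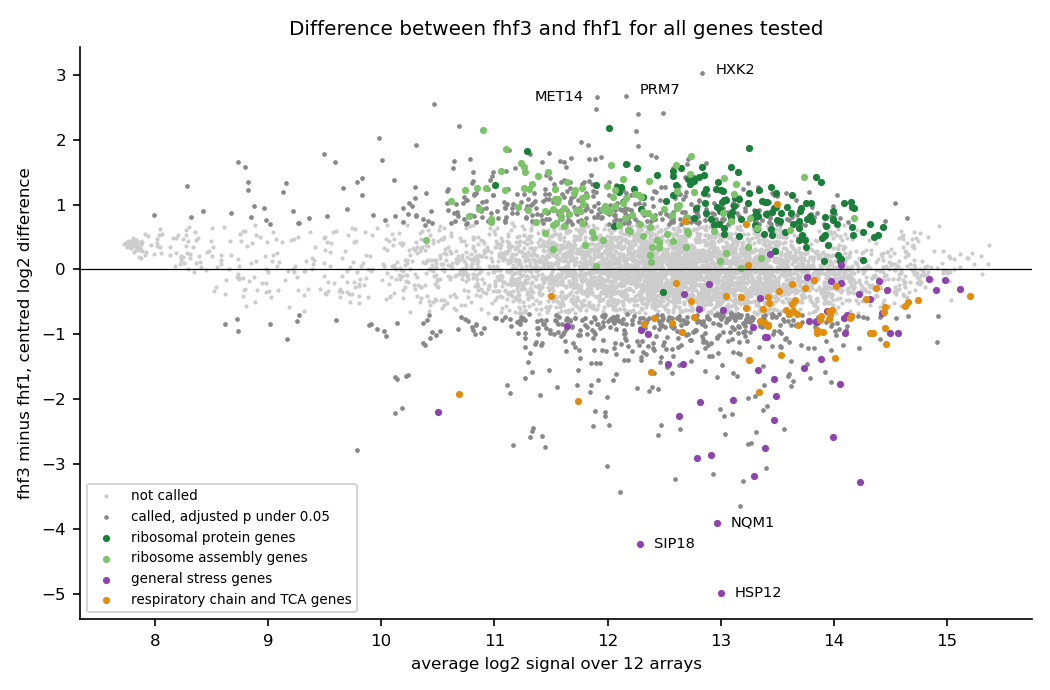
Centred log2 difference of fhf3 minus fhf1 against the average log2 signal over the 12 arrays, 1 point per gene for 5769 genes, with members of 4 sets of lists in colour whether or not they passed the test. Ribosomal protein and ribosome assembly genes lie above 0 with few exceptions, general stress genes reach down to -4.99 for HSP12, and HXK2 at 3.03 is the highest point.

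The largest rise was that of HXK2 (YGL253W), which encodes hexokinase 2, the main hexokinase of cells growing on glucose and also a component of glucose repression. Its level was 1.85, 1.82 and 2.27 in the fhf3 cultures, against -0.87, -1.15 and -1.14 in the fhf1 cultures. All fhf3 cultures lay above all fhf1 cultures, and the difference was 3.03 ± 0.27 (SE), a fold change of 8.16 (adjusted p = 4.7e-20). The other sugar kinase genes gave no such difference. HXK1, the hexokinase of derepressed cells, stood at 2.08, 2.30 and 2.50 in fhf3 and 2.26, 2.63 and 2.23 in fhf1, and the groups overlapped (difference -0.09, adjusted p = 0.87). The glucokinase gene GLK1 differed by -0.06 (adjusted p = 0.921), its paralogue EMI2 by -0.01 (0.986) and the galactokinase gene GAL1 by -0.04 (0.946).

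Genes for maltose itself gave few calls. Of 13 measured maltose and sucrose genes 1 rose and 0 fell, with a median difference of -0.20, and with scaled arrays 2 rose and 1 fell. The maltose permease gene MAL31 stood at 2.11, 2.16 and 2.37 in fhf3 and at 2.34, 2.76 and 2.12 in fhf1. The levels overlapped and were far above the median gene in both mutants (difference -0.20, adjusted p = 0.661). The maltase genes MAL12 and MAL32, whose near-identical sequences the probes may not tell apart, differed by -0.32 and -0.15 (adjusted p = 0.44 and 0.758). MAL11 and MAL13, a second permease and a regulator gene in the S288C genome, lay between -4.34 and -4.67 in fhf3 and between -4.42 and -5.08 in fhf1, near the lowest signals on the arrays. Their differences were at most 0.38 and, at such levels, are not read as changes in expression. The regulator gene MAL33 (0.27), the isomaltase genes IMA1, IMA2, IMA3 and IMA5 (-0.27 to 0.07), the transporter gene MPH2 (-0.29) and the regulator ZNF1 (-0.31) did not pass the test. The member that rose was SUC2, the glucose-repressed invertase, with 1.31, 1.20 and 1.55 in fhf3 against 0.49, 0.46 and 0.37 in fhf1 (difference 0.91, adjusted p = 0.00656).

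Of 16 measured hexose transporter genes 2 rose and 5 fell, with a median of -0.15, where over all genes 10.4% rose and 9.34% fell. With scaled arrays 4 rose and 5 fell, and without fhf1 replicate 1 there were 3 falls. Those that rose were HXT4 and HXT3, carriers of intermediate and low affinity. HXT4 stood at -1.48, -1.73 and -1.81 in fhf3 and at -2.48, -2.74 and -2.73 in fhf1 (difference 0.97, adjusted p = 0.00317). HXT3 differed by 0.72 (adjusted p = 0.039), and its call was lost when any of 5 cultures was left out, with an adjusted p of 0.207 without fhf3 replicate 1. Among the falls HXT13 stood at -1.51, -1.33 and -1.51 in fhf3 and at 0.33, 0.07 and 0.34 in fhf1 (difference -1.71, adjusted p = 6.62e-08). Its close relatives HXT17 (-1.20) and HXT15 (-0.90) fell as well, and the probes may share signal between the 3 genes. HXT5, a transporter of slow or starved cells, stood at -2.06, -2.01 and -2.11 in fhf3 and at -1.09, -1.28 and -1.24 in fhf1 (-0.87, adjusted p = 0.00955). The galactose transporter gene GAL2 fell by 0.86. The calls of GAL2 and HXT15 were lost without fhf1 replicate 1 (adjusted p = 0.0736 and 0.0674), and that of HXT15 also without fhf3 replicate 2 (0.0948). The high-affinity genes HXT6 and HXT7, near-identical to each other, were at 1.40 or more in every culture of both mutants and differed by -0.09 and -0.24 (adjusted p = 0.866 and 0.593). The low-affinity gene HXT1 differed by -0.26 (0.549) and HXT2 by -0.21 (0.637).

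**Figure D2:**
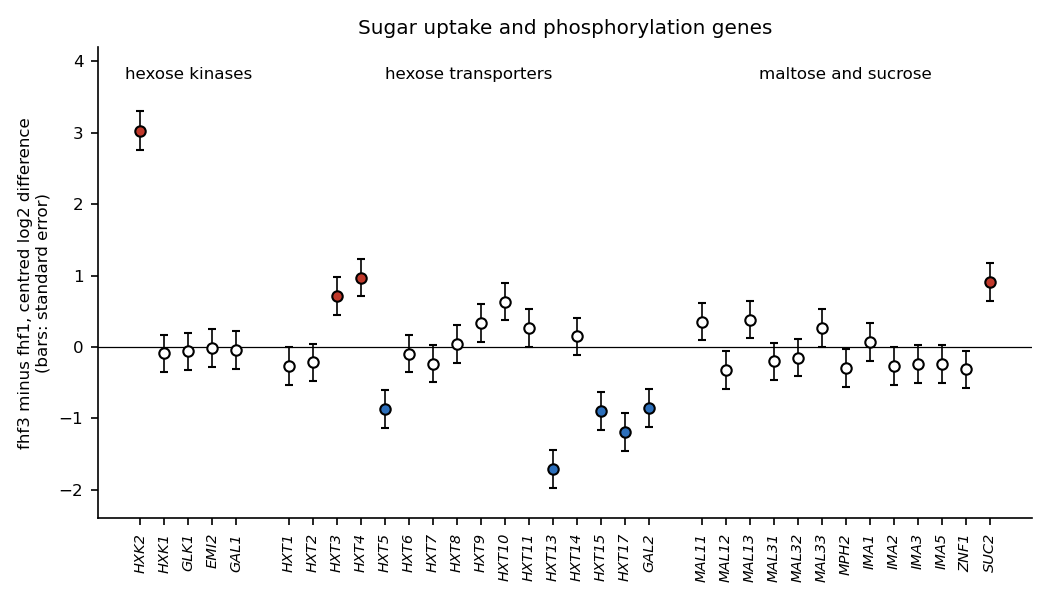
Centred log2 difference of fhf3 minus fhf1 for 5 hexose kinase, 16 hexose transporter and 13 maltose and sucrose genes, with bars of 1 standard error and filled symbols where the adjusted p was under 0.05 (red for risen, blue for fallen). HXK2 at 3.03 stands apart from the other kinase genes, which lie between -0.09 and -0.01, and the maltose genes other than SUC2 lie between -0.32 and 0.38. The highest of these are MAL11 and MAL13, which lay near the lowest signals in both mutants.

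Regulators of glucose repression and of the return from it differed in some cases. Of 35 measured genes 1 rose and 6 fell, with a median of -0.18, where over all genes 10.4% rose and 9.34% fell. With scaled arrays 3 rose and 13 fell, against 24.8% and 24.0% of all genes. Without single cultures 3 to 7 fell, with the 3 left when fhf3 replicate 3 was left out. The gene that rose was MIG1, the repressor that acts while glucose is plentiful, at -1.07, -1.01 and -1.15 in fhf3 and -2.28, -1.97 and -1.95 in fhf1 (difference 0.98, adjusted p = 0.00267). Among the 6 that fell was ADR1, an activator of genes for non-fermentative growth. It stood at -2.07, -2.21 and -2.37 in fhf3 and at -0.35, -0.80 and -0.87 in fhf1 (-1.55, adjusted p = 7.31e-07). CAT8, the activator of gluconeogenic genes, differed by -1.47 (adjusted p = 2.93e-06), and SIP2, which encodes a subunit of the Snf1 kinase complex, by -1.33 (2.85e-05).

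Glycolysis gave few calls, with 1 of 22 measured genes risen, 2 fallen and a median of 0.05, or -0.34 without centring, and with scaled arrays 4 rose and 3 fell. The median level of the list was 2.42, 2.28 and 2.31 in the fhf3 cultures and 2.06, 2.48 and 2.09 in the fhf1 cultures, which overlap. Genes of the list that did not pass the test ranged from -0.44 to 0.67. The 2 that fell were ERR3 (-2.58) and ERR1 (-2.49), near-identical relatives of enolase, whose signals may not be separate. The riser was PFK27, the gene of a 6-phosphofructo-2-kinase that makes an activator of glycolysis, at 2.08, 1.97 and 1.97 in fhf3 and 0.89, 1.39 and 1.28 in fhf1 (0.81, adjusted p = 0.0155), a call that was lost without fhf1 replicate 1 (0.114), fhf3 replicate 1 (0.0676) or fhf3 replicate 2 (0.052).

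Some genes downstream of pyruvate changed by a wide margin. Of 19 measured genes for pyruvate, acetaldehyde and ethanol 1 rose and 4 fell, with a median of -0.17. Over all genes 10.4% rose and 9.34% fell. With scaled arrays 4 of the list rose and 6 fell, against 24.8% and 24.0% of all genes. ALD4, the mitochondrial aldehyde dehydrogenase that oxidises acetaldehyde, stood at -0.97, -1.09 and -1.72 in fhf3 and at 1.52, 1.43 and 1.32 in fhf1. The groups were far apart, and the difference of -2.69 (adjusted p = 3.59e-17) is a level 6.46-fold higher in fhf1. The cytosolic aldehyde dehydrogenase genes ALD3 and ALD2 differed by -2.04 and -0.93. PDC5, a pyruvate decarboxylase gene that is normally low while its main counterpart is active, stood at -0.33, -0.74 and -0.41 in fhf3 and at 0.88, 1.35 and 1.05 in fhf1 (-1.60, adjusted p = 3.49e-07). The alcohol dehydrogenase gene ADH4 rose, with 1.40, 1.17 and 1.53 in fhf3 against 0.26, 0.40 and 0.35 in fhf1 (1.02, adjusted p = 0.00199).

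Most glycerol genes that changed fell. Of 13 measured genes 1 rose and 5 fell, with a median of -0.40, and the fall count was 5 without each of the 6 cultures in turn. GPP1, the glycerol phosphatase that completes glycerol synthesis, rose, with 2.00, 2.06 and 2.13 in fhf3 against 0.87, 1.30 and 1.06 in fhf1 (0.98, adjusted p = 0.00296). GPD1, the glycerol-3-phosphate dehydrogenase of the preceding step, fell, with 1.12, 1.11 and 0.87 in fhf3 against 2.16, 2.41 and 2.17 in fhf1 (-1.22, adjusted p = 0.000122). The other falls were STL1, GCY1, GUT2 and GUT1. The glycerol importer gene STL1 differed by -2.20, GCY1 by -1.79, the mitochondrial dehydrogenase gene GUT2 by -1.68 and the glycerol kinase gene GUT1 by -1.01, with adjusted p between 5.35e-12 and 0.00238.

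Of 18 measured pentose phosphate genes 2 rose and 4 fell, with a median of -0.09, and with scaled arrays 6 rose and 6 fell. The falls were NQM1, a transaldolase paralogue (-3.91), GND2, a 6-phosphogluconate dehydrogenase (-2.86), TKL2, a transketolase (-2.75), and SOL4, a lactonase (-1.51). All 4 are also members of the general stress list below. The TKL2 level was -1.15, -1.23 and -1.09 in fhf3 and 1.68, 1.60 and 1.48 in fhf1 (adjusted p = 6.68e-18). The rises were those of RKI1, ribose-5-phosphate isomerase, and PRS4, which makes the nucleotide precursor PRPP. RKI1 stood at 0.22, 0.41 and 0.11 in fhf3 and at -2.01, -1.64 and -1.55 in fhf1 (1.97, adjusted p = 2.27e-10). PRS4 differed by 0.88, and its call was lost without fhf1 replicate 1 (adjusted p = 0.0644).

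Genes of the cytosolic ribosome were higher in fhf3. Of 54 measured small-subunit protein genes 37 rose and 0 fell, with a median of 0.89, and of 78 large-subunit protein genes 59 rose and 0 fell, with a median of 0.94. Over all genes 10.4% rose. Without centring the medians were 0.50 and 0.56. The median level of the small-subunit genes was 1.38, 1.36 and 1.36 in the fhf3 cultures and 0.12, 0.58 and 0.75 in the fhf1 cultures. That of the large-subunit genes was 1.17, 1.22 and 1.31 in fhf3 and 0.01, 0.35 and 0.59 in fhf1. The fhf3 cultures lay close together and above every fhf1 culture, while the fhf1 cultures were spread, with replicate 1 lowest in both lists. Without fhf1 replicate 1 the counts were 16 of 54 and 30 of 78.

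Single ribosomal protein genes rose by up to 2.18. RPS22A stood at 0.58, 0.56 and 0.42 in fhf3 and at -2.06, -1.58 and -1.35 in fhf1 (2.18, adjusted p = 7.42e-12), RPS26B differed by 1.88 (5.53e-09), and RPL22B and its copy RPL22A by 1.83 and 1.57. RPL11A (1.62), RPL8B and the stalk protein gene RPP2A (both 1.58), RPS7A and RPS21A (both 1.45) and RPS27B (1.43) also rose. Many of these genes come in pairs whose probes may share signal, so the value of one copy is uncertain. The members of both lists that did not pass the test lay between -0.34 and 0.69.

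Factors that build ribosomes followed the same direction, and here the fhf1 cultures were close together. Of 54 measured genes for assembly of the small subunit 38 rose and 0 fell, with a median of 0.90. Of 64 for assembly and export of the large subunit 47 rose and 0 fell, with a median of 0.93. Without centring the medians were 0.52 and 0.54, and without single cultures the counts were 29 to 38 and 36 to 50. The median level of the small-subunit factors was 0.06, 0.16 and 0.03 in the fhf3 cultures and -0.75, -0.73 and -0.82 in the fhf1 cultures, and that of the large-subunit factors was 0.09, 0.05 and 0.06 in fhf3 and -0.86, -0.89 and -0.84 in fhf1. No culture of fhf1 reached the lowest of fhf3 in either list.

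The largest rise among them was SLX9, a factor for export of the small subunit precursor, at -0.51, -0.21 and -0.40 in fhf3 and -2.91, -2.50 and -2.19 in fhf1 (2.15, adjusted p = 9.24e-12). UTP8, a member of the processome that cleaves the ribosomal RNA precursor and also a tRNA export factor, stood at -0.31, -0.33 and -0.22 in fhf3 and at -2.23, -2.12 and -2.12 in fhf1 (1.86, adjusted p = 2.24e-09). Of the same machinery EMG1, a methyltransferase of ribosomal RNA, differed by 1.61, UTP13 by 1.58 and UTP4 by 1.51. In the large-subunit branch MRT4, which prepares the ribosomal stalk, stood at 1.18, 1.28 and 1.34 in fhf3 and at -0.81, -0.40 and -0.27 in fhf1 (1.75, adjusted p = 2.92e-08). NIP7 differed by 1.64, the small nucleolar RNA-binding protein gene NHP2 by 1.60, RSA4 by 1.51 and IPI3 by 1.44. Each of these genes had fhf3 levels above all fhf1 levels. They were picked as called, and 1133 of all 1137 called genes had no overlap, so this adds no support.

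RNA polymerase I, which transcribes the ribosomal RNA genes, had 6 of 15 measured genes risen and 0 fallen, with a median of 0.55, or 0.16 without centring. The count was 6 without each of the 6 cultures in turn and 10 with scaled arrays. The subunit gene RPA49 stood at 0.34, 0.44 and 0.39 in fhf3 and at -1.78, -1.34 and -1.50 in fhf1 (1.92, adjusted p = 6.21e-10). RPA12 differed by 1.78, RPA34 by 1.76, RPA43 by 1.38 and the initiation factor gene RRN11 by 1.24. Translation factors and tRNA synthetases were shifted less, with 8 of 42 risen, 0 fallen and a median of 0.46, or 0.07 without centring. Their count was 32 with scaled arrays and 4 to 6 without single cultures, with 4 left without fhf3 replicate 3 and 5 without fhf3 replicate 2. The elongation factor gene TEF4 stood at 1.15, 1.39 and 1.50 in fhf3 and at 0.10, 0.15 and 0.07 in fhf1 (1.24, adjusted p = 0.000122), and the leucyl-tRNA synthetase gene CDC60 differed by 1.06 (0.00116).

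**Figure D3:**
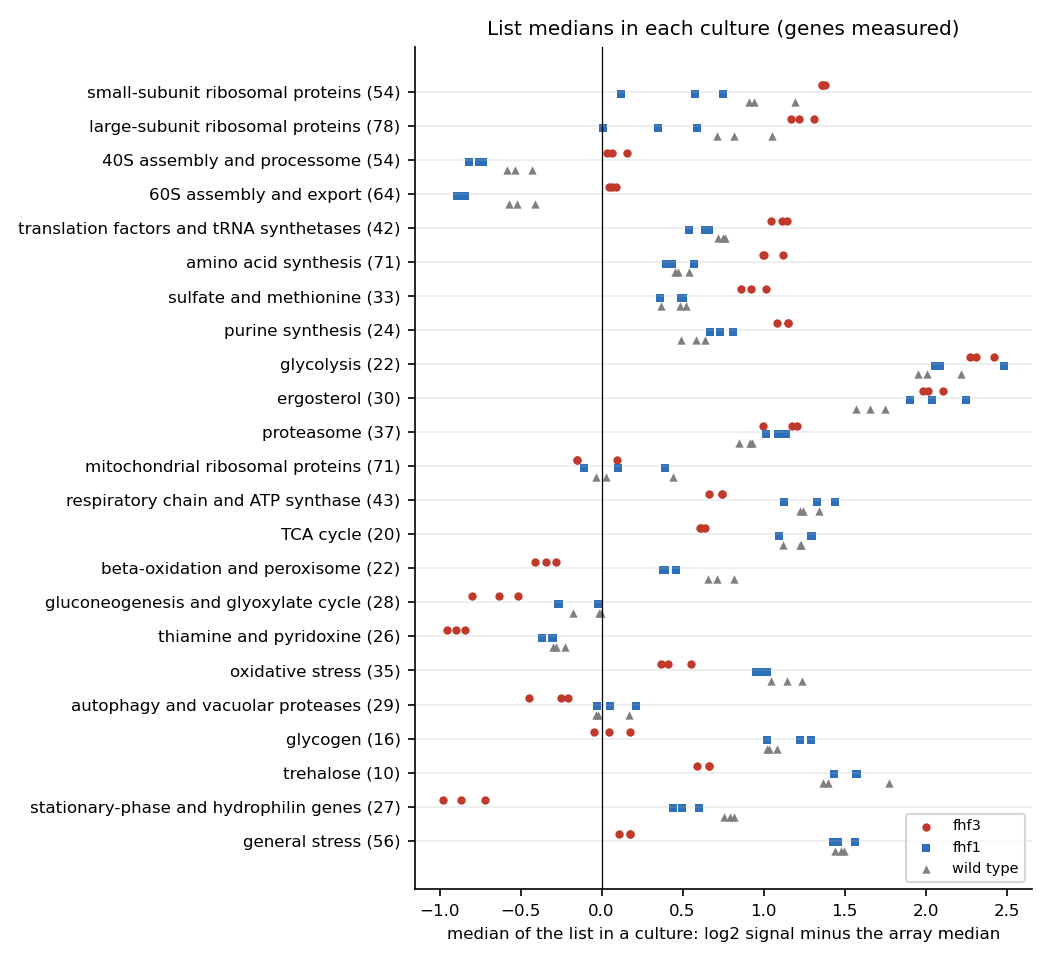
Median level of 23 gene lists in each culture (log2 signal minus the array median), with fhf3 as circles, fhf1 as squares and wild type as triangles, and the number of genes measured in brackets. General stress genes lie at 0.11 to 0.18 in fhf3 and 1.43 to 1.57 in fhf1, and small-subunit ribosomal protein genes at 1.36 to 1.38 in fhf3 and 0.12 to 0.75 in fhf1.

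Amino acid synthesis genes were also higher in fhf3, with 26 of 71 risen, 1 fallen and a median of 0.50, or 0.12 without centring. With scaled arrays 45 rose and 3 fell, and without single cultures 17 to 26 rose, with the 17 left when fhf3 replicate 2 was left out. ARO4, the first enzyme of aromatic amino acid synthesis, stood at 1.11, 1.30 and 1.05 in fhf3 and at -0.64, -0.49 and -0.33 in fhf1 (1.63, adjusted p = 2.26e-07). ARO7, chorismate mutase in the same pathway, differed by 1.36, the mitochondrial branched-chain aminotransferase gene BAT1 by 1.34, SER33 of serine synthesis by 1.22 and HIS7 of histidine synthesis by 1.20. The gene that fell was GDH3, a glutamate dehydrogenase of the respiring cell, at 0.05, -0.30 and -0.57 in fhf3 and 1.17, 1.03 and 0.87 in fhf1 (-1.30, adjusted p = 4.19e-05).

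The pathway that reduces sulfate to sulfide for methionine and cysteine had 12 of 33 measured genes risen, 1 fallen and a median of 0.45, or 0.06 without centring. With scaled arrays 22 rose. MET14 (YKL001C), which encodes adenylylsulfate kinase, stood at 1.17, 1.13 and 1.04 in fhf3 and at -1.90, -1.26 and -1.48 in fhf1. The groups were far apart, and the difference of 2.65 is a 6.29-fold change (adjusted p = 1.56e-16). MET16, of the next reduction step, stood at 1.50, 1.47 and 1.50 in fhf3 and at -0.30, -0.12 and -0.04 in fhf1 (1.64, adjusted p = 1.86e-07). CYS3, which makes cysteine, differed by 1.27, the sulfite reductase gene MET5 by 1.14 and the sulfate adenylyltransferase gene MET3 by 1.13. The sulfate permease gene SUL1 was the member that fell (-0.79, adjusted p = 0.0199), and its call was lost without fhf1 replicate 1 (0.0824), fhf3 replicate 2 (0.067) or fhf3 replicate 3 (0.0905).

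Purine synthesis had 6 of 24 genes risen and 0 fallen, also without each culture in turn, with a median of 0.31 that turned to -0.07 without centring. With scaled arrays 13 rose. Of the 6 risers 4 lie in the branch to guanine nucleotides. IMD3, which encodes IMP dehydrogenase, stood at 0.61, 0.36 and 0.58 in fhf3 and at -1.99, -1.91 and -2.01 in fhf1 (2.48, a 5.57-fold change, adjusted p = 4.14e-15). Its near-identical relatives IMD4 and IMD2 differed by 1.33 and 1.15, with probes that may share signal, and the GMP synthase gene GUA1 by 1.05. SHM2, a serine hydroxymethyltransferase that feeds carbon units into purines, differed by 1.14 (adjusted p = 0.000472).

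General stress genes were lower in fhf3. Of 56 measured genes 0 rose and 36 fell, against 9.34% of all genes fallen, with a median of -0.96. The median level of the list was 0.18, 0.18 and 0.11 in the fhf3 cultures and 1.46, 1.57 and 1.43 in the fhf1 cultures, so the list lay near the median gene in fhf3 and far above it in fhf1. HSP12 (YFL014W), a small membrane-protecting heat shock protein, had the largest difference of all genes tested. Its level was -3.45, -3.30 and -3.34 in fhf3 and 1.74, 1.61 and 1.51 in fhf1, a difference of -4.99 ± 0.26 (SE, adjusted p = 3.3e-41), which is 31.8-fold higher in fhf1. SIP18, a hydrophilin that protects dried cells, stood at -3.32, -3.12 and -3.35 in fhf3 and at 0.75, 1.25 and 0.90 in fhf1 (-4.24, adjusted p = 7.79e-34). DDR2, a multistress gene, stood at -0.75, -0.35 and -1.20 in fhf3 and at 2.32, 2.77 and 2.43 in fhf1 (-3.28, adjusted p = 1.2e-23). The wild-type mean level was 2.19 for HSP12, 0.86 for SIP18 and 2.61 for DDR2, so that for these genes the fhf3 cultures stood apart from wild type as well.

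Genes of stationary phase and the hydrophilins had 1 of 27 risen and 15 fallen, with a median of -0.97 and 14 or 15 fallen without each culture in turn. FMP16 differed by -3.44, SNO4 by -3.24 and the water channel gene AQY1 by -2.71. AQY1 stood at -3.92, -3.91 and -4.21 in fhf3 and at -0.67, -1.91 and -1.35 in fhf1 (adjusted p = 1.82e-16), near the lowest signals in fhf3, and its wild-type mean was 1.36. SNO4, HSP32 (-3.27) and HSP33 (-3.15) are near-identical members of the HSP31 family, so their values may be 1 shared signal. The gene that rose was ATG41, an autophagy factor, at 0.88, 1.03 and 1.27 in fhf3 and -1.85, -0.82 and -0.57 in fhf1 (2.13, adjusted p = 2.94e-11).

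**Figure D4:**
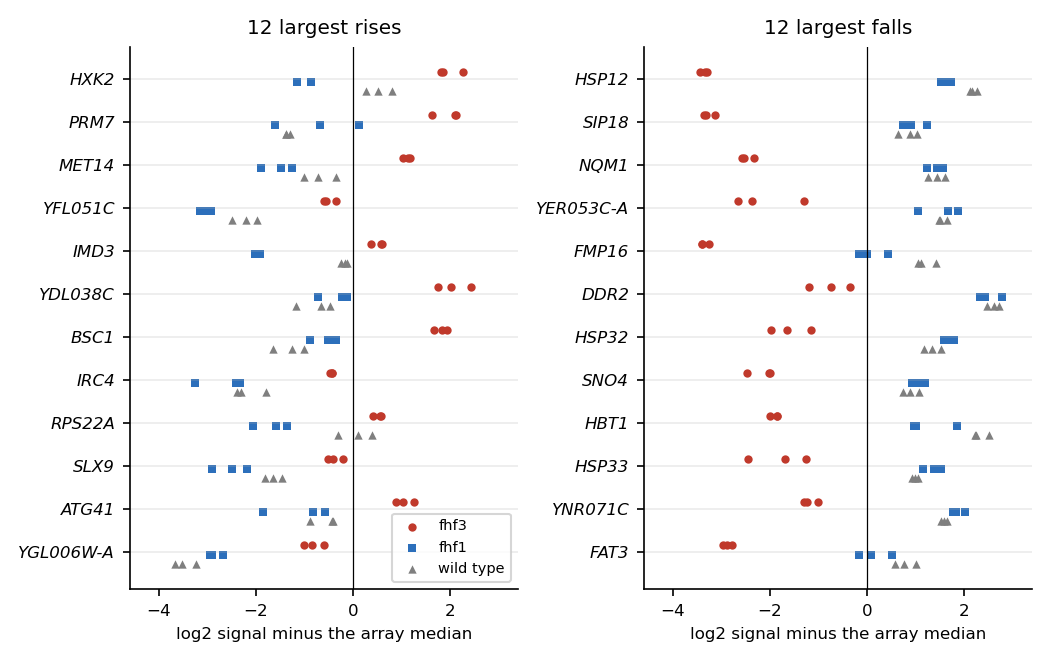
Levels (log2 signal minus the array median) of 12 risen and 12 fallen genes, those with the largest differences of fhf3 minus fhf1, with 3 cultures each of fhf3 (circles), fhf1 (squares) and wild type (triangles). In each of the 24 genes the fhf3 and fhf1 cultures do not overlap, a condition by which the genes were chosen.

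Of 36 measured chaperone genes 4 rose and 7 fell, with a median of -0.17, where over all genes 10.4% rose and 9.34% fell, and with scaled arrays 7 rose and 12 fell. The inducible Hsp70 gene SSA4 stood at -0.67, -0.73 and -0.66 in fhf3 and at 0.76, 0.97 and 0.61 in fhf1 (-1.48, adjusted p = 1.95e-06), SSE2 differed by -1.17 and the small heat shock protein gene HSP26 by -0.98. SSA2, a constitutive Hsp70 gene, stood at 1.13, 0.93 and 1.22 in fhf3 and at -1.23, -0.39 and -0.85 in fhf1 (1.91, adjusted p = 1.43e-09). HCH1, an activator of Hsp90, differed by 1.00 (adjusted p = 0.00252). Without fhf1 replicate 1 there were 2 rises. The proteasome list, by contrast, had 0 of 37 genes risen and 0 fallen, with a range of -0.57 to 0.55, and with scaled arrays 1 rose and 2 fell.

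Oxidative stress genes had 0 of 35 risen and 12 fallen, with a median of -0.38 and 20 fallen with scaled arrays. GPX1, a glutathione peroxidase, stood at -2.10, -1.76 and -2.16 in fhf3 and at 0.65, 0.91 and 1.12 in fhf1 (-2.91, adjusted p = 2.81e-19). The NADPH oxidoreductase gene OYE3 differed by -2.23, the cytosolic catalase gene CTT1 by -2.01, the peroxiredoxin gene TSA2 by -1.28 and GRE2 by -1.22. Autophagy and vacuolar protease genes had 1 of 29 risen and 9 fallen, with a median of -0.52, and 19 fallen with scaled arrays. Without single cultures 4 to 12 fell, with 4 left without fhf3 replicate 2 and 5 without fhf1 replicate 1, fhf3 replicate 1 or fhf3 replicate 3. PAI3, an inhibitor of the vacuolar protease A, differed by -1.56, the receptor gene ATG39 by -1.28 and ATG3 and ATG14 by -0.91 each.

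Storage carbohydrate genes were lower in fhf3. Of 10 trehalose genes 0 rose and 7 fell, with a median of -0.80, and of 16 glycogen genes 0 rose and 8 fell, with a median of -0.74. With scaled arrays 9 trehalose and 12 glycogen genes fell and 1 trehalose gene rose. The median trehalose level was 0.66, 0.59 and 0.67 in the fhf3 cultures and 1.57, 1.57 and 1.43 in the fhf1 cultures. Genes for making and for breaking down trehalose were among the falls. TSL1, a subunit of the synthase, differed by -1.16, the phosphatase gene TPS2 by -0.95, the neutral trehalase gene NTH2 by -1.41 and the acid trehalase gene ATH1 by -0.86. PGM2, the phosphoglucomutase that supplies glucose-1-phosphate, differed by -1.07. The protein phosphatase subunit genes GIP2 and PIG2, which direct the phosphatase to glycogen metabolism, differed by -1.95 and -1.65. GIP2 stood at -0.65, -0.51 and -0.53 in fhf3 and at 1.47, 1.50 and 1.17 in fhf1 (adjusted p = 3.95e-10). The glycogenin gene GLG1 differed by -1.49, the debranching enzyme gene GDB1 by -1.13 and SGA1, a glucoamylase known from sporulating cells, by -1.78.

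Regulators of the stress programme and of protein kinase A had 0 of 26 risen and 7 fallen, with a median of -0.36 and 13 fallen with scaled arrays. TPK2, a catalytic subunit of protein kinase A, differed by -0.89. The stress transcription factor gene MSN4 stood at -1.12, -1.09 and -1.08 in fhf3 and at 0.11, 0.03 and -0.14 in fhf1 (-1.10, adjusted p = 0.000599). YAK1, a kinase that acts against growth, differed by -1.07, and GPB2, a negative regulator of the kinase A pathway, by -0.97. All cultures of fhf3 lay below all cultures of fhf1 in each of these genes. Of all 1137 called genes 1133 had no overlap, so for genes picked as called this adds no support.

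Respiration was lower in fhf3 at the level of transcripts. Of 20 TCA cycle genes 2 rose and 13 fell, with a median of -0.71, and of 43 genes for respiratory chain or ATP synthase subunits 1 rose and 18 fell, with a median of -0.63. With scaled arrays 17 and 35 fell. Without single cultures 8 to 12 TCA and 8 to 18 respiratory genes fell. The 8 TCA genes were left without fhf3 replicate 3, the 8 respiratory genes without fhf3 replicate 1, and 11 respiratory genes fell without fhf1 replicate 3. The median level of the TCA list was 0.61, 0.61 and 0.64 in the fhf3 cultures and 1.30, 1.29 and 1.10 in the fhf1 cultures.

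The mitochondrial aconitase gene ACO1 stood at 0.56, 0.48 and 0.46 in fhf3 and at 1.73, 2.02 and 1.85 in fhf1 (-1.37, adjusted p = 1.09e-05). The carrier gene ODC1, which moves 2-oxodicarboxylates across the mitochondrial membrane, stood at -0.23, -0.32 and -0.69 in fhf3 and at 0.97, 0.84 and 0.77 in fhf1 (-1.28, adjusted p = 5.43e-05). Its paralogue ODC2 moved the other way and stood at 0.83, 1.04 and 1.08 in fhf3 and at -0.60, 0.03 and -0.37 in fhf1 (1.29, adjusted p = 4.64e-05). Both carrier genes are counted with gluconeogenesis and related carriers below and not with the TCA cycle. Among the TCA cycle genes the largest rise was 0.75. The mitochondrial isocitrate dehydrogenase gene IDP1, also a riser of that list, differed by 0.70 (adjusted p = 0.0476). The call of IDP1 was lost without each of the 6 cultures, with an adjusted p of up to 0.177 without fhf3 replicate 3. The succinate dehydrogenase subunit genes SDH2 (-1.16) and SDH4 (-0.99) fell, as did the paralogues SDH9 (-1.92), which lay near the lowest signals in fhf3, and SHH3 (-1.59).

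In the respiratory chain NDE2, NDE1 and NDI1, whose NADH dehydrogenases pass electrons from NADH to ubiquinone, differed by -2.03, -1.39 and -1.32. NDI1 stood at 0.17, 0.19 and 0.15 in fhf3 and at 1.49, 1.57 and 1.39 in fhf1 (adjusted p = 2.71e-05). INH1, the inhibitor of the ATP synthase, differed by -1.89 (adjusted p = 1.88e-09) and the synthase subunit gene ATP4 by -0.99. The gene of this list that rose was DLD3, a cytosolic hydroxyglutarate transhydrogenase, at 1.67, 1.77 and 1.80 in fhf3 and 0.67, 0.94 and 0.58 in fhf1 (1.01, adjusted p = 0.00195). Of 71 genes of the mitochondrial ribosome 0 rose and 3 fell, where over all genes 10.4% rose and 9.34% fell. Their median was -0.25, and 58 of the 71 lay below the median gene. With scaled arrays 1 rose and 25 fell, against 24.8% and 24.0% of all genes.

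Genes for the use of fatty acids and 2-carbon compounds were lower in fhf3. Of 22 genes of beta-oxidation and the peroxisome 0 rose and 9 fell, with a median of -0.59 and 17 fallen with scaled arrays. The thiolase gene POT1 stood at -2.52, -2.35 and -2.54 in fhf3 and at 0.41, -0.13 and -0.05 in fhf1 (-2.55, adjusted p = 1.03e-15), the multifunctional enzyme gene FOX2 differed by -2.26, SPS19 by -1.83 and the acyl-CoA oxidase gene POX1 by -1.43. Of 28 genes of gluconeogenesis, the glyoxylate cycle and related carriers 3 rose and 10 fell, with a median of -0.43, and with scaled arrays 4 rose and 15 fell. The carnitine carrier gene CRC1 stood at -2.49, -2.41 and -2.53 in fhf3 and at -0.01, -0.34 and 0.11 in fhf1 (-2.40, adjusted p = 3.64e-14). The cytosolic malate dehydrogenase gene MDH2 differed by -1.85, the malate synthase gene MLS1 by -1.58 and the carnitine acetyltransferase gene CAT2 by -1.47. Besides ODC2, those that rose were CIT2, the peroxisomal citrate synthase, at 0.93, 0.76 and 0.72 in fhf3 and -0.56, -0.35 and -0.32 in fhf1 (1.21, adjusted p = 0.000179), and MAE1, the mitochondrial malic enzyme (1.26, adjusted p = 6.64e-05).

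Nitrogen supply genes differed in some members, where over all genes 10.4% rose and 9.34% fell. Of 35 nitrogen catabolite repressed genes, which serve the use of poor nitrogen sources, 0 rose and 5 fell, with a median of -0.08, and with scaled arrays 6 rose and 8 fell. Without single cultures 2 to 5 fell, with 2 left without fhf3 replicate 2 and 3 without fhf1 replicate 1, fhf1 replicate 3 or fhf3 replicate 3. The peptide transporter gene PTR2 differed by -1.08 and the GABA permease gene UGA4 by -0.98. Among 24 amino acid permease genes 1 rose and 3 fell, or 4 and 6 with scaled arrays. The riser was DIP5, a permease for acidic amino acids, at 1.00, 0.89 and 0.50 in fhf3 and -0.22, -0.60 and -0.64 in fhf1 (1.27, adjusted p = 6.37e-05), and AGP2 (-1.44) and ALP1 (-1.11) fell. CHA1 (YCL064C), the dehydratase that breaks down serine and threonine, stood at -2.47, -2.73 and -2.55 in fhf3 and at 0.40, 0.07 and -0.04 in fhf1 (-2.73, adjusted p = 1.83e-17), a level 6.65-fold higher in fhf1.

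The vitamin, phosphate and metal lists are set beside all genes, of which 10.4% rose and 9.34% fell. With scaled arrays the shares over all genes were 24.8% and 24.0%. Of 26 thiamine and pyridoxine genes 1 rose and 8 fell, with a median of -0.45 and 17 fallen with scaled arrays. In this list 3 genes lay above the median gene and 23 below it. Without single cultures 5 to 9 fell, and 5 were left without fhf1 replicate 1 and without each fhf3 culture. THI13 (-1.01), THI5 (-0.94) and THI12 (-0.88) are near-identical and may be 1 signal. Of 25 phosphate genes 5 rose and 0 fell, with a median of 0.02, or -0.36 without centring, and with scaled arrays 10 rose and 5 fell. Without single cultures 3 to 5 rose, with the 3 left when fhf3 replicate 1 was left out. PHO84, the high-affinity phosphate transporter, stood at 1.37, 1.24 and 1.10 in fhf3 and at -0.36, -0.34 and -0.30 in fhf1 (1.56, adjusted p = 5.2e-07). SPL2, a regulator of phosphate transport, differed by 1.93 and GIT1, which takes up glycerophosphoinositol and lay near the lowest signals in fhf1, by 1.66. Of 32 iron genes 1 rose and 6 fell, with a median of -0.11. With scaled arrays 7 rose and 11 fell, and without single cultures 3 to 6 fell, with 3 left without fhf1 replicate 1 or fhf3 replicate 3. The ferric reductase gene FRE4 rose, with 1.44, 1.65 and 1.65 in fhf3 against 0.02, 0.17 and 0.29 in fhf1 (1.42, adjusted p = 7.28e-06). The siderophore genes FIT1 (-1.14) and ENB1 (-1.13) fell.

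Sterol synthesis, which needs oxygen, gave no calls. Of 30 ergosterol genes 0 rose and 0 fell, with a range of -0.38 to 0.30, and with scaled arrays 0 rose and 2 fell. Of 28 genes known from anaerobic or hypoxic cells 6 rose and 3 fell, with a median of 0.17 that turned to -0.22 without centring, and with scaled arrays 11 rose. Without single cultures 4 to 6 rose, with the 4 left when fhf3 replicate 2 was left out. The sterol importer gene AUS1 stood at 1.22, 0.92 and 1.17 in fhf3 and at -0.60, -0.80 and -0.51 in fhf1 (1.73, adjusted p = 4.21e-08). SUT2 differed by 1.68, the mitochondrial ADP/ATP carrier gene AAC3 by 1.27 and YSR3 by 1.17. Among 31 genes for fatty acids and phospholipids 2 rose and 1 fell, or 8 and 5 with scaled arrays. ELO2, a fatty acid elongase, stood at -0.72, -0.65 and -0.35 in fhf3 and at -2.24, -1.86 and -1.90 in fhf1 (1.41, adjusted p = 1.1e-05), and the elongase gene ELO3 differed by 1.07.

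The cell cycle lists held some called genes, where over all genes 10.4% rose and 9.34% fell. With scaled arrays the shares over all genes were 24.8% and 24.0%. Of 37 G1 and S phase genes 2 rose and 2 fell, with a median of 0.17 that turned to -0.21 without centring, and with scaled arrays 8 rose and 3 fell. PCL1, a G1 cyclin, stood at -1.49, -1.23 and -0.82 in fhf3 and at -3.08, -2.32 and -3.26 in fhf1 (1.70, adjusted p = 7.98e-08). Of 33 G2 and M phase genes 0 rose and 3 fell, with 10 fallen under scaled arrays, and of 11 histone genes 0 rose and 0 fell, with 3 risen and 2 fallen under scaled arrays. Among 27 genes of ribonucleotide reductase and DNA damage 1 rose and 4 fell, with 9 fallen under scaled arrays. RNR3, the damage-induced large subunit, stood at -1.15, -1.52 and -1.32 in fhf3 and at 0.93, 0.95 and 0.57 in fhf1 (-2.15, adjusted p = 3.64e-12). HUG1, an inhibitor of the enzyme that is itself induced by damage, stood at 0.16, 0.20 and -0.10 in fhf3 and at -2.37, -1.44 and -0.93 in fhf1 (1.66, adjusted p = 3.62e-07), so the pair moved in opposite directions. The mitochondrial nuclease gene DIN7 differed by -1.94. Without fhf1 replicate 1 the list had 2 falls.

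Mating type markers were checked because the strain is labelled mating type alpha. The alpha-factor gene MF(ALPHA)1 stood at 1.28, 1.58 and 1.66 in fhf3 and at 1.11, 1.82 and 1.77 in fhf1, and the a-factor receptor gene STE3, which alpha cells express, at 0.81 or more in every culture. The median level of all 5 alpha-specific genes was 1.28, 1.32 and 1.56 in fhf3 and 0.81, 1.00 and 0.95 in fhf1. The a-specific genes STE2, BAR1, ASG7 and AGA2 lay at -2.05 or lower in all 6 cultures. MFA1, MFA2 and STE6 of the same list are not among these, so the genes just named do not stand for all 7. MFA2 lay higher in fhf1, between -0.66 and -1.13, and the levels of MFA1 and STE6 are not given here. The median level of all 7 a-specific genes was -2.69, -2.74 and -2.89 in fhf3 and -2.33, -2.05 and -2.10 in fhf1. Of 5 alpha-specific genes 2 rose and 0 fell, with a median of 0.52. MF(ALPHA)2 stood at 0.38, 0.23 and 0.49 in fhf3 and at -0.91, -1.05 and -1.01 in fhf1 (1.35, adjusted p = 3.03e-05), and AFB1 differed by 0.91, a call lost without fhf1 replicate 1 (adjusted p = 0.0525) or fhf3 replicate 3 (0.0611). Of 7 a-specific genes 0 rose and 2 fell, with a median of -0.42. MFA2 stood at -2.69, -2.74 and -2.89 in fhf3 and at -0.66, -1.13 and -0.84 in fhf1 (-1.90, adjusted p = 1.65e-09), and MFA1 differed by -0.79, a call lost without fhf1 replicate 3 (0.246), fhf3 replicate 2 (0.0576) or fhf3 replicate 3 (0.152). With scaled arrays 4 of the 5 alpha-specific genes rose and 6 of the 7 a-specific genes fell. The part of the a-specific signal in any result above was not tested.

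Of 30 haploid and pheromone response genes 6 rose and 1 fell, with a median of 0.13 that turned to -0.25 without centring, and with scaled arrays 13 rose and 8 fell. Over all genes 10.4% rose and 9.34% fell, and with scaled arrays 24.8% and 24.0%. KAR4, a regulator of mating genes, stood at -0.31, -0.31 and -0.19 in fhf3 and at -1.64, -1.45 and -1.25 in fhf1 (1.17, adjusted p = 0.000341), the agglutinin anchor gene AGA1 differed by 1.19 and PRM5, near the lowest signals in fhf1, by 0.98. Without fhf1 replicate 1 there were 4 rises. Of 32 meiosis and sporulation genes 4 rose and 5 fell, with a median level of -2.36, -2.38 and -2.38 in fhf3 and -2.04, -2.18 and -2.32 in fhf1, low in both mutants. With scaled arrays 9 rose and 11 fell, and without fhf3 replicate 2 there were 3 falls. The meiotic splicing gene MER1 differed by 1.78 and MND1 by 1.06, while SPS100 (-1.82), the kinase gene SPS1 (-1.63) and RIM4 (-1.61) fell. Of 42 cell wall genes 4 rose and 7 fell, with 14 fallen under scaled arrays, where 24.0% of all genes fell. CIS3 (1.19) and SCW10 (1.14) rose, and the mannoprotein gene CWP1 (-1.67), PIR1 (-1.18) and PIR3 (-1.11) fell.

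Several of the largest changes have not been given above, most of them in genes outside the lists. The neighbouring loci PRM7 (YDL039C), YDL038C and BSC1 (YDL037C) rose together. PRM7, a member of the pheromone response list, stood at 2.13, 1.63 and 2.10 in fhf3 and at -1.61, -0.69 and 0.12 in fhf1 (2.67, adjusted p = 7.42e-16), with a wide spread between the fhf1 cultures. YDL038C stood at 2.42, 2.02 and 1.75 in fhf3 and at -0.73, -0.23 and -0.12 in fhf1 (2.42, adjusted p = 1.27e-14), and BSC1 at 1.84, 1.95 and 1.68 in fhf3 and at -0.88, -0.52 and -0.34 in fhf1 (2.40, adjusted p = 1.73e-14). Among the fhf1 cultures replicate 1 was the lowest for all 3, and whether they are separate transcripts in Y55 was not tested. YFL051C, a locus of little-known function, differed by 2.55 with -0.34, -0.59 and -0.55 in fhf3 and -2.92, -3.07 and -3.16 in fhf1 (adjusted p = 5.76e-16). IRC4 differed by 2.21 and the small open reading frame YGL006W-A by 2.02. Among the falls YER053C-A, which encodes a small protein, stood at -2.67, -2.37 and -1.30 in fhf3 and at 1.05, 1.67 and 1.87 in fhf1 (-3.65, adjusted p = 1.74e-25). HBT1 (-3.19), a member of the general stress list, YNR071C (-3.07) and FAT3 (-3.03), known from fatty acid uptake, followed.

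Against wild type the same genes can be placed, with the caution that both mutants are set against the same 3 wild-type cultures and that each difference is centred on its own median. HXK2 stood at 1.36 in fhf3 against wild type and at -1.62 in fhf1 against wild type, and both passed the test. For MET14 the differences were 1.71 in fhf3 and -0.89 in fhf1, for SLX9 1.17 and -0.93, for YFL051C 1.62 and -0.87, and each of these passed. CHA1 lay at -1.77 in fhf3 and 1.01 in fhf1, and YBR072C-A, a small open reading frame near the lowest signals in fhf3, at -1.23 and 1.61. The median ribosomal protein gene of the small subunit was at 0.29 in fhf3 and -0.54 in fhf1 against wild type, and the median general stress gene at -1.04 in fhf3 and -0.02 in fhf1. HSP12 lay at -5.64 in fhf3 and -0.60 in fhf1, and only the fhf3 value passed with the values as deposited. IMD3 stood at 0.60 in fhf3 and -1.83 in fhf1, RPS22A at 0.36 and -1.77, PDC5 at -0.25 and 1.40, and SUC2 at 0.87 and 0.01.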

How the data were processed

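Transcript levels were measured in fhf3, fhf1, fhf2 and wild type, 3 separate cultures each, per the labels. Per the labels' protocols, cDNA was made from mRNA by oligo(dT) priming, carried Cy3 and was read on a 1-colour NimbleGen array. The protocols mention triplicate hybridisation, which leaves unclear if a culture's value is a mean of several arrays. The tool limma appears in the submitters' processing notes, its version does not. How the arrays were scanned, background-corrected, normalized and summarised over probes, and the genome build, is not given in the sources used.

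The authors deposited log2 signals per gene and array in a value table, whose array medians differ, and a table of comparisons with log2 fold changes, a t statistic (a score) and p-values for each mutant against wild type. Of its 5880 lines 5777 carry values, and 5769 genes found in both tables were tested. Group means of the deposited log2 signals gave the deposited fold changes within 5e-08. The deposited scores and p-values served only for an alternative standard error.

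From the log2 values limma 3.58.1 in R 4.3.3 fitted 4 group means to 12 arrays (lmFit and eBayes). The contrast fhf3 minus fhf1 was centred on its median of -0.38 and tested two-sided, with Benjamini-Hochberg adjustment over all genes. Printed levels subtract each array's median. Centring leaves the differences independent of array scaling, which changes the standard error only. The fit was tested on simulated data. The number of cultures, 3 per group, limits the precision.

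The members, the comparisons and the 49 gene lists were chosen with earlier results of these data known. Lists have no test and are described by counts and medians beside those of all genes. Genes were named by rule: the 12 largest rises and 12 largest falls among called genes without overlap, up to 5 called members per list and direction, all members of lists of 8 or fewer, all maltose, hexose transporter and hexose kinase genes, and up to 6 genes called in opposite directions against wild type. That gave 273 genes, of which the text prints a part. RPA49, UTP8, SUT2 and SPS1 are named as list members. Symbols come from a RefSeq gene table, which held 5763 systematic names and not the other 6. Alternatives covered centring, scaling, the arrays fitted, the variance prior, dim genes, a 2-fold threshold, single cultures and a replicate block. Scaling the arrays to a common median was added after seeing the data. A planned search for promoter motifs was not run, and no promoter sequence was used here. Results for some genes are not reported here.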

Additional observations from a re-analysis of the deposited data

Results flagged for a closer look

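In 10 genes (0.173% of those tested) fhf3 and fhf1 each passed limma's test against wild type and did so in opposite directions. Both mutants are set against the same 3 wild-type cultures. The difference between the mutants, in which wild type cancels, is given for each. It passed the test in all 10, which the choice of genes with opposite signs already fixed, so it adds no support. Higher in fhf3 were HXK2 (difference 3.03, with 1.36 in fhf3 and -1.62 in fhf1 against wild type), MET14 (2.65, with 1.71 and -0.89), YFL051C (2.55, with 1.62 and -0.87), SLX9 (2.15, with 1.17 and -0.93), RPA49 (1.92, with 0.77 and -1.10), UTP8 (1.86, with 0.94 and -0.87) and SUT2 (1.68, with 0.75 and -0.88). Lower in fhf3 were YBR072C-A (-2.79, with -1.23 in fhf3 and 1.61 in fhf1 against wild type), CHA1 (-2.73, with -1.77 and 1.01) and SPS1 (-1.63, with -0.79 and 0.89). YBR072C-A stood at -4.09, -4.11 and -4.13 in the fhf3 cultures, or 0.35, 0.40 and 0.62 above the lowest level on those arrays, and at -1.01, -1.56 and -1.42 in the fhf1 cultures, so the size of its difference may be only a lower bound. With arrays scaled to a common median 173 genes (3.0%) were called in opposite directions.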

How the results depend on the processing

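The 1137 calls (598 higher, 539 lower in fhf3) depended on settings as follows, and where no construction shows the cause, the cause was not tested. Without centring 1967 genes were called (267 and 1700), with quantile normalization 2750 (1393 and 1357), with each gene's own variance 568 (288 and 280) and against a 2-fold difference 76 (17 and 59). Leaving out 1 culture gave 726 to 1286 (360 to 651 higher, 366 to 635 lower), the lowest without fhf1 replicate 1. With arrays scaled to a common median 2811 were called (1428 and 1383), against a 2-fold difference 156 (57 and 99), without the dimmest 25% of genes 2065 (1042 and 1023), and without 1 culture each 2423 to 2762 (1197 to 1408, 1194 to 1354). Scaling lowers the median residual SD to 0.161, against 0.306 as deposited. The 6 arrays alone gave 966, a prior that follows signal 1237, errors from the deposited t 1139 and the dimmest 25% left out 829.

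Deviations from the group means of same-numbered fhf3 and fhf1 cultures correlated over genes at 0.335, -0.0528 and 0.0243 for replicates 1, 2 and 3, so the numbers were not taken as pairs. Between strains the deviations of replicate 1 correlated at 0.135 to 0.449 in every pair. Cultures of unlike number also correlated, as fhf1 replicate 3 with wild-type replicate 2 (0.648). A factor shared by cultures of several strains was not tested. With a replicate block 1056 genes were called, and 2996 (1522 and 1474) with scaled arrays as well.

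Of the 240 named genes that were called, none changed direction in a setting run. Settings that change only the standard error, as scaling the arrays does, could not change it. The call held for 192 without each culture in turn and was lost for 48 without at least 1. It was lost for 188 against a 2-fold difference, 66 with their own variance, 27 without centring, 18 with the 6 arrays alone and 8 with the block. With quantile normalization it was lost for 0. With scaled arrays it was also lost for 0, where the differences are the same and the median standard error is lower.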

Other observations

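Of 23 genes for serine and threonine turnover and for the Ehrlich pathway, which turns amino acids into fusel alcohols, 3 rose and 4 fell in fhf3, with a median of -0.17, and 5 rose and 9 fell with arrays scaled to a common median. Among the risers were BAT1, a branched-chain aminotransferase (1.34), and SHM2, a serine hydroxymethyltransferase (1.14). Among the falls were CHA1, which degrades serine and threonine (-2.73), and PDC5, a pyruvate decarboxylase (-1.60). CHA4, the activator of CHA1, differed by -0.79 (limma, adjusted p = 0.0209), and its adjusted p was 0.12 without fhf1 replicate 1 and 0.126 without fhf3 replicate 2. Without either of these cultures 2 genes of the list fell.

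The difference between fhf3 and fhf1 went with signal. With the genes ranked by average signal and split into 5 bins of 1153 or 1154, the median difference was 0.134, 0.0402, -0.0178, -0.0306 and -0.0647, given in order of growing signal, and with quantile normalization 0.0502, 0.0323, -0.00661, -0.0157 and -0.0472. Medians by nuclear chromosome ran from -0.0425 to 0.0812 over 16 chromosomes.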
